A study of Mus musculus with 6 samples.

Results

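The genes described here are 51 mouse homeobox genes that lie outside the Hox clusters. They are the LIM homeobox genes Lhx1 to Lhx6, Lhx8 and Lhx9, the sine oculis genes Six2 to Six6, and members of the Nkx, Dlx, Irx, Pitx, Otx, Msx, En, Emx, Gsx, Vax and Meis families. They are a list given by name, with no threshold on a measured value, and all 51 of 51 were found among 21887 protein-coding genes, on 13 chromosomes. Homeobox genes encode transcription factors that bind DNA through a homeodomain and set cell identity in the embryo, including neurons, eye, limb, heart and craniofacial structures. Many of them have promoters rich in CG dinucleotides (CpG), and promoters of developmental regulators are known as places where mouse sperm keep nucleosomes while protamines package most other DNA.

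MNase-seq was done on sperm from the epididymis and vas deferens of mice. Micrococcal nuclease (MNase) cuts DNA that is not protected by nucleosomes, and DNA of mononucleosome size was purified from a gel and sequenced. The 4 wild-type libraries (WT 1 to WT 4) came from C57BL6 mice and the 2 mutant libraries (K49A 1 and K49A 2) from mice in which lysine 49 of protamine 1 is replaced by alanine, and the design text calls the libraries of each group biological replicates. All 6 preparations were treated with DNase I before the sperm were permeabilised and decondensed with DTT, and ages were not given in the labels. The data are lists of broad peaks, 1 for each library, with a fold over the background of its own library and a −log10 p for each peak. Read depth is unknown, so a missing peak means that no peak was called there and not that nucleosomes were absent.

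The lists differed in length and in their limit. The WT lists held 11313, 20458, 22237 and 27903 peaks, and the K49A lists 700 and 1017. The lowest −log10 p kept was between 3.32 and 3.75 in the WT lists, and 4.73 and 4.55 in K49A 1 and K49A 2. WT 1 stood apart from the other WT libraries by its short list. The main counts that turn on it are given with and without it, and counts by family and by promoter CpG only with it. A peak was counted at a gene end when it overlapped, by at least 1 bp, the window of 1 kb either side of either annotated end, and in the stretch when it overlapped the gene body or the 1 kb flanks. Markers of other cells that a sperm preparation could hold were also looked at. On average 27.1% ± 7.98 of 12 epididymal epithelium genes and 25.0% of 12 leukocyte genes had an end peak in WT (n = 4). Both shares lay below the 42.0% ± 9.23 of all protein-coding genes in WT. Cftr, Defb42, C1qb and Cd3d had an end peak in all 4 WT libraries. No WT library had one at 7 of the epididymal and 8 of the leukocyte genes. Cftr was the only one of the 24 marker genes with an end peak in a K49A library. The part of other cells in the results was not tested. Prm1 itself had no peak in any list, and peaks carry no information on the substitution.

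Peaks at the ends of the homeobox genes were common in WT sperm and were not called in K49A sperm. An end peak was called at 22 of 51 genes in WT 1, 37 in WT 2, 33 in WT 3 and 37 in WT 4, and at 0 in both K49A libraries. As shares of the 51 genes these were 43.1%, 72.5%, 64.7% and 72.5%, with a mean of 63.2% ± 13.9 (SD, n = 4). Over all protein-coding genes the shares were 28.8%, 43.0%, 46.3% and 49.9% in WT 1 to WT 4, and 0.429% and 0.334% in K49A 1 and K49A 2. In each WT library the homeobox genes lay above all genes, by the least in WT 1. In K49A the counts of 0 of 51 are near the background of under 1% and are no result particular to these genes. The K49A mean was lower by 63.2 percentage points (SE 6.95), and the groups did not overlap (two-sided exact permutation test over 15 splits, p = 0.133, the smallest p that 4 against 2 libraries allow).

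**Figure D1:**
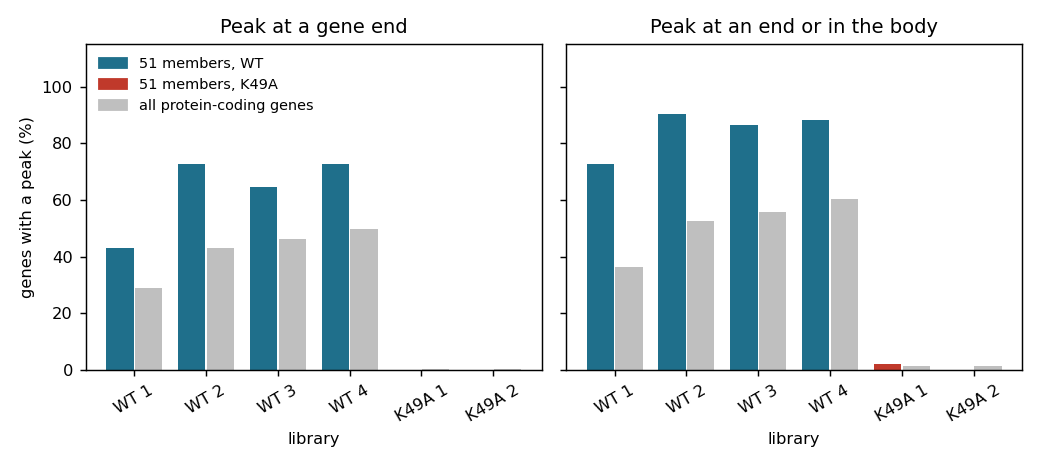
Bars give the percent of the 51 homeobox genes (coloured) and of all 21887 protein-coding genes (grey) with a peak at a gene end, and at an end or in the body, in each of the 6 libraries (x axis). In all 4 WT libraries the homeobox genes sit above all genes, and in both K49A libraries both shares are near 0.

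Counting the gene bodies as well raised the WT counts to 37, 46, 44 and 45 of 51 genes, a mean of 84.3% ± 8.0 (SD, n = 4). The same shares over all genes were 36.2%, 52.6%, 55.7% and 60.4%. In K49A 1 there was 1 gene with such a peak, Meis1, against 1.25% of all genes, and in K49A 2 there was 0, against 1.58%. The difference was 83.3 points (SE 4.12) with no overlap of the groups (two-sided exact permutation test, p = 0.133). Homeobox genes are short, with a median length of 6495 bp against 17169 bp over all genes, so their higher share was found over shorter stretches. Peaks covered 2.08%, 4.39%, 4.84% and 4.33% of the 949558 bp of the 51 stretches in WT 1 to WT 4 (mean 3.91% ± 1.24), where all genes had 0.827% ± 0.270 (SD, n = 4). These covered shares were not matched for gene length, and long genes hold more bases far from a start. Over all genes with a known start, the WT share covered was 29.6% at 200 bp after it and 0.962% at 2000 bp. The part of gene length in the covered shares was not tested. In K49A the covered part was 200 bp in K49A 1 and 0 bp in K49A 2, which again differed from WT without overlap (two-sided exact permutation test, p = 0.133). Adjusted by Benjamini-Hochberg over these 3 tests, each exact permutation p was 0.133. Each of these p-values is the smallest that 4 against 2 libraries allow. It is reached whenever the groups do not overlap, so it does not measure the spread between libraries.

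The size of the difference between genotypes depended on how strong a peak had to be, and the K49A lists start at a higher −log10 p than the WT lists. When peaks had to reach a −log10 p of 5 in all lists, 27.0% ± 7.40 of the homeobox genes had an end peak in WT and 0 in K49A, against 24.4% ± 5.85 of all genes in WT. At a limit of 6 the WT share was 11.8% ± 3.58, against 13.4% ± 4.62 of all genes, and 0 in K49A. For stretches the WT shares of the homeobox genes and of all genes were 43.1% ± 6.98 and 30.4% ± 6.90 at the limit of 5. At 6 they were 20.6% ± 5.19 and 16.6% ± 5.43. Both shares in each comparison come from the same 4 libraries, so these SDs do not measure the spread of their difference. The difference between the homeobox genes and all genes was not tested at either limit. At a limit of 10 no homeobox gene had an end peak in any library, against 1.39% of all genes in WT. With every list cut to the 700 strongest peaks the WT mean was 0.490%, against 1.80% of all genes, and K49A had 0 (two-sided exact permutation test, p = 1.0 for both). The part of the list limits in the difference was not tested.

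**Figure D2:**
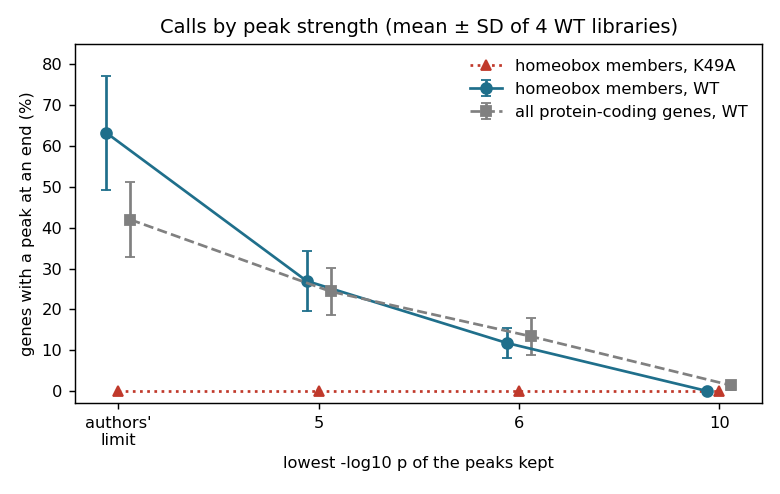
Percent of genes with a peak at a gene end, for the 51 homeobox genes in WT and K49A and for all genes in WT (means, bars are SD over the 4 WT libraries), as the −log10 p a peak must reach is raised, with the steps evenly spaced and not to scale. The WT share of the homeobox genes starts above that of all genes at the authors' limit and is level with it at 5 and 6, while the homeobox genes in K49A are at 0 throughout.

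Most homeobox genes were called in some WT libraries and not in others. The numbers of genes with an end peak in 0, 1, 2, 3 and 4 WT libraries were 4, 7, 10, 18 and 12. The 12 genes with an end peak in each WT library and in no K49A library were 23.5% of 51, near the 21.8% of all genes. The 18 genes called in 3 WT libraries were 35.3%, where all genes had 15.3%, and the 4 genes called in none were 7.84%, where all genes had 40.2%. Without WT 1 the number with an end peak in each remaining WT library and none in K49A was 23 (45.1%), against 32.4% of all genes. Without WT 4 it was 17 (33.3%), against 22.8%. Without WT 2 or WT 3 it was 13 (25.5%), against 24.1% and 23.0%. This count turns most on WT 1, and also on WT 4. For stretches the count of genes with a peak in each WT library and none in K49A was 27 (52.9%), against 28.0% of all genes, and 36 (70.6%) without WT 1, against 40.5%. All 51 genes had a peak in their stretch in at least 1 WT library, against 70.1% of all genes.

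**Figure D3:**
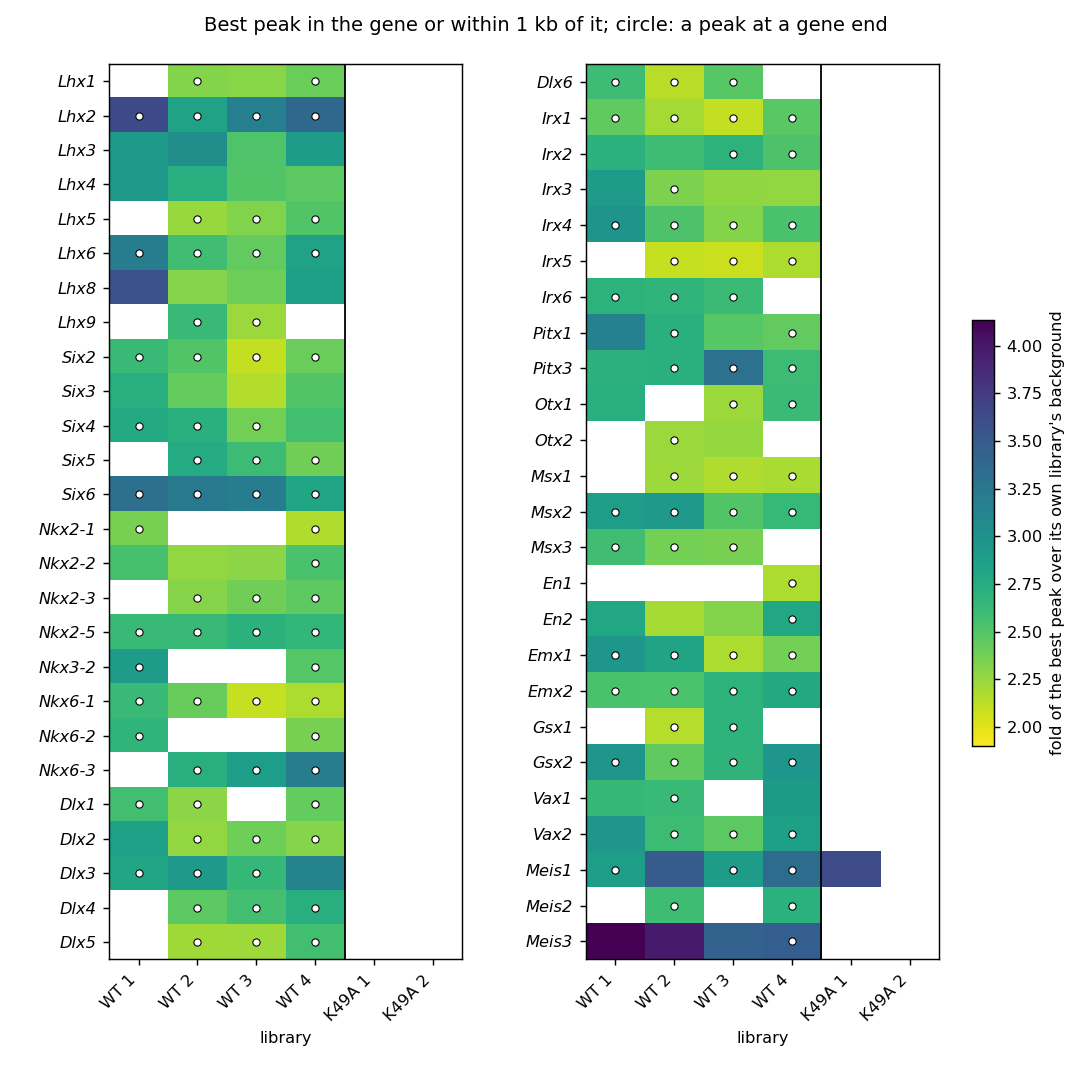
Fold over background of the best peak in the stretch of each of the 51 homeobox genes (rows, by family) in each library (columns), with a circle where a peak touches a gene end and a blank cell where no peak was called. Most rows are filled in WT 2, WT 3 and WT 4, fewer in WT 1, and the only filled K49A cell is Meis1 in K49A 1.

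Of the 12 genes with an end peak in each WT library, 10 (83.3%) had bases there that all 4 lists covered, against 89.9% of all such genes. Bases covered by a peak in all 4 WT libraries, called shared bases here, lay at an end of 10 genes (19.6%), against 19.9% of all genes, and in the stretch of 16 genes (31.4%), against 24.3%. Without WT 1 these counts were 19 (37.3%, against 30.1% of all genes) and 27 (52.9%, against 36.3%). The 16 genes held 17 such pieces, from 39 bp at Nkx2-5 to 640 bp at Six4. With the transcription starts of the RefSeq promoter table, 4 of the 17 pieces lay over a start, 11 within 1 kb of one, and 12 wholly downstream of the nearest one. The folds were modest: the median fold of peaks at homeobox gene ends was 2.69, 2.39, 2.37 and 2.49 in WT 1 to WT 4, and that of all end peaks 3.25, 2.96, 2.99 and 2.97. Ranked within each list by −log10 q, the homeobox end peaks had median percentiles of 37.4, 39.5, 40.0 and 48.6, below the 61.1, 58.6, 60.1 and 69.1 of all end peaks.

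The LIM homeobox genes, which specify neuron types, limb and pituitary, held the highest mean fold among the 12 genes with an end peak in each WT library. Lhx2, needed for forebrain and eye, had a peak over its start in every WT library, with folds of 3.63, 2.85, 3.17 and 3.51 (3.29 ± 0.352, SD, n = 4), and its shared bases were chr2:38339102-38339572 (mm10). Each WT library also had an Lhx2 peak at the 3′ end, where those of WT 1 and WT 4 overlapped, as did those of WT 2 and WT 3, and no base was covered in all 4. Lhx6, which marks forebrain interneurons, had end folds of 3.19, 2.35, 2.44 and 2.85 (2.71 ± 0.392), with shared bases at chr2:36105332-36105540 over a start. The remaining LIM genes included 3 with no end peak in any library, Lhx3, Lhx4 and Lhx8. Each of the 3 had peaks inside the gene in all 4 WT libraries: Lhx4, a pituitary and motor neuron factor, had folds of 2.93, 2.74, 2.51 and 2.46 at shared bases 240 bp upstream of an inner start. Lhx8, a factor of cholinergic neurons, had folds of 3.57, 2.31, 2.39 and 2.86 at chr3:154328438-154328637, 1923 bp after its start. Lhx3 folds were 2.94, 3.03, 2.52 and 2.90, but no base was covered in all 4. Measured from the tabled starts instead, Lhx4 had a peak within 1 kb in all 4 WT libraries, Lhx3 in 3 and Lhx8 in 0. In all, 2 of 8 LIM genes had an end peak in every WT library, where 22.2% of all genes did, the background for each family count of this kind.

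Of the sine oculis genes, which act in eye, kidney and muscle precursors, 2 of 5 had an end peak in all 4 WT libraries. At Six6, a factor of retina and hypothalamus, the peak lay beyond the 3′ end of the gene, at chr12:72945512-72945944, with folds of 3.31, 3.23, 3.20 and 2.81 (3.14 ± 0.221). Near the start of Six6, WT 2, WT 3 and WT 4 had peaks with folds of 2.23, 2.24 and 2.53, and WT 1 had none within 1 kb of it. Six2, which keeps kidney progenitors undifferentiated, had folds of 2.63, 2.51, 2.11 and 2.41 (2.41 ± 0.223) with shared bases from 110 bp to 450 bp after its start. Six4 had the most covered bases of its family, 737, 2201, 3080 and 1890 bp in WT 1 to WT 4, fewest in WT 1. Six3, which patterns the anterior forebrain, had no peak at its outer ends. Its folds of 2.73, 2.43, 2.16 and 2.51 came from inside the gene, with shared bases from 533 bp to 844 bp after the tabled start.

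Among the NK genes 2 of 8 were called at an end in all 4 WT libraries, both at the 3′ end. Nkx6-1, a factor of motor neurons and beta cells, had end folds of 2.63, 2.42, 2.10 and 2.33 at its 3′ end, with shared bases chr5:101659371-101659570, and a peak near its start in WT 4 alone. Nkx2-5, a cardiac factor, had folds of 2.62, 2.31, 2.70 and 2.47 (2.52 ± 0.170) at its 3′ end, where 39 bp were covered in all 4, and peaks covered 338, 1931, 1557 and 1087 bp of its stretch. WT 2, WT 3 and WT 4 also had a peak within 1 kb of its tabled start, which lies inside the outer gene end. All 8 NK genes were called at an end in WT 4. The 3 genes Nkx2-1, Nkx3-2 and Nkx6-2 were called at an end in WT 1 and WT 4 and in neither WT 2 nor WT 3, a pattern of 5.88% of the 51 genes and 1.08% of all genes, named after the values were seen.

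No DLX gene, a family of forebrain and jaw factors, had an end peak in each of the 4 WT libraries, and all 6 were called in at least 3, where 30 of the 51 genes (58.8%) and 37.5% of all genes were. Of the WT libraries, only WT 1 had no end peak at Dlx2, Dlx4 and Dlx5. Dlx5 covered 0, 2055, 1648 and 1541 bp in WT 1 to WT 4, with folds of 2.22, 2.22 and 2.58 where it was called. The neighbouring pairs Dlx1 and Dlx2, Dlx3 and Dlx4, and Dlx5 and Dlx6 shared no end peak in any library. The same held for Six3 and Six2 and for Six6 and Six4, so no count of an end peak was made from a peak of a neighbour among the 51.

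Of the Iroquois genes, which act in heart and neural patterning, Irx4 and Irx1 were called at an end in all 4 WT libraries. Irx4, a ventricular factor, had folds of 2.98, 2.53, 2.31 and 2.54 (2.59 ± 0.278), with shared bases from 64 bp to 334 bp after a tabled start. At Irx1 the folds were 2.45, 2.20, 2.14 and 2.47 (2.32 ± 0.167), and no base was covered in all 4. Irx2 covered 331, 1086, 2374 and 538 bp, the most of its family on average, with end peaks in WT 3 and WT 4 only. None of the 4 Pitx and Otx genes was called at an end in every WT library, and at Pitx3 only WT 1 of the WT libraries had no end peak. Pitx3, a factor of lens and dopamine neurons, had best folds of 2.70, 2.72, 3.30 and 2.60, from inside the gene in WT 1 and from its start in the other three libraries.

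Msx2, a limb and skull factor, was called at its start in all 4 WT libraries, with folds of 2.88, 2.92, 2.51 and 2.64 (2.74 ± 0.196) and shared bases from 80 bp to 516 bp after the start. In the En, Emx, Gsx and Vax group 3 of 8 were called in all 4. Emx2, a cortex and urogenital factor, had the lowest SD of the 12 genes called at an end in each WT library, with folds of 2.54, 2.54, 2.69 and 2.78 (2.63 ± 0.118) and shared bases chr19:59458342-59458699 that end 9 bp inside the gene. Gsx2, a factor of the ventral forebrain, had folds of 2.96, 2.44, 2.68 and 2.96 (2.76 ± 0.250), from 488 bp after its start. Emx1, also a cortex factor and added after its values were seen, had folds of 2.95, 2.83, 2.18 and 2.37 (2.58 ± 0.367), with no base covered in all 4.

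The MEIS genes, whose proteins pair with other homeodomain proteins on DNA, included the highest fold and the only K49A peak. Meis3 held the highest mean fold of all 51 genes and was chosen for mention after its values were seen: 4.13, 3.97, 3.43 and 3.47 (3.75 ± 0.355), with shared bases chr7:16175111-16175492. These lie from 284 bp before to 97 bp after its tabled transcription start, yet 1099 bp inside the outer gene end, so that the rule counts them as an end peak in WT 4 alone. Meis1, a factor of blood stem cells and limb, was the only gene of the 51 with a K49A peak. In K49A 1 the peak was chr11:19007533-19007732, with a fold of 3.61 and a −log10 p of 6.08, and K49A 2 had none. The WT libraries had peaks at the same place in the gene body, with folds of 2.89, 3.49, 2.90 and 3.34 (3.16 ± 0.308) and shared bases chr11:19007673-19008139. All 4 WT peaks overlap the K49A 1 peak, and folds are not compared between genotypes because each is relative to its own library.

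Which end of a gene was called differed between the homeobox genes and the rest. Strand was known for 38 of the 51 genes and 17492 of all genes, from the promoter table. A peak within 1 kb of the start was called in all 4 WT libraries at 8 genes (21.1%), against 21.2% of all genes: Lhx2, Lhx6, Six2, Irx4, Msx2, Emx1, Emx2 and Gsx2. A peak within 1 kb of the 3′ end was called in all 4 at 4 genes (10.5%), against 0.966%: Lhx2, Six6, Nkx2-5 and Nkx6-1. By library the share with a 3′ end peak was 17.8% ± 3.31 in WT, with 5, 7, 7 and 8 of 38 genes, and 4.01% ± 1.5 over all genes (SD, n = 4). The share with a start peak was 52.6% ± 10.1 and 39.9% ± 8.61. These shares were not matched for gene length, with medians of 6495 bp for the 51 genes and 17169 bp for all genes. In a short gene the window at the 3′ end lies nearer to the start. The part of gene length in the 3′ end shares was not tested. No K49A library had either kind of peak at these 38 genes. The count at the 3′ end was 4 with any single WT library left out. At the start the count without WT 1 was 11 (28.9%), against 31.0% of all genes.

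Away from the tabled starts, on both sides, the mean share covered by a peak, whether near or separate from the start, was higher for the homeobox genes than for all genes. Single peaks were not wider: the median width of homeobox end peaks was 421.5, 599.5, 616 and 522 bp in WT 1 to WT 4, and that of all end peaks 490, 687, 686 and 588 bp. At the tabled start itself a peak covered 25.7% ± 7.86 of the 38 genes and 26% ± 8.08 of all genes on average over the 4 WT libraries. The share was highest 200 bp downstream, at 30.9% ± 8.69 and 29.6% ± 8.26. At 500 bp downstream it was still 29.6% ± 9.46 for the homeobox genes and 18.9% ± 5.58 for all genes. At 1000 bp downstream it was 13.2%, 15.8%, 10.5% and 15.8% in WT 1 to WT 4 for the homeobox genes, and 2.76%, 7.22%, 7.42% and 5.16% for all genes. The homeobox genes lay above all genes there in each WT library. At 2000 bp downstream the mean shares were 7.89% ± 3.72 and 0.962% ± 0.399, and at 2000 bp upstream 3.29% ± 2.52 and 0.496% ± 0.211. Upstream the homeobox shares were 0%, 2.63%, 5.26% and 5.26% in WT 1 to WT 4, which among 38 genes are very few genes. WT 1 lay there below the 0.183% of all genes in that library. In K49A the homeobox genes were at 0 at 500 bp and 1000 bp. All genes were at 0.0858% and 0.0286% there in K49A 1, and at 0.0400% and 0.0515% in K49A 2.

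**Figure D4:**
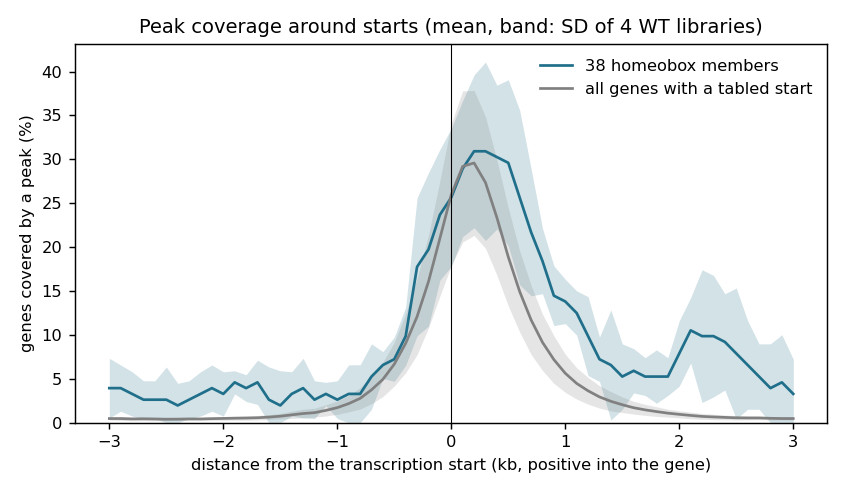
Percent of genes whose base at a given distance from the tabled transcription start (x axis, kb, negative is upstream) is covered by a peak, as the mean of the WT libraries with a band of 1 SD (n = 4), for 38 homeobox genes and all 17492 genes with a tabled start. Both WT curves are near 26% at the start, and the homeobox curve lies above that of all genes far from the start on both sides.

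Promoter sequence was compared with the calls. Sequence (250 bases before to 50 bases after the start, RefSeq GRCm38.p6) matched 38 of the 51 genes by symbol, and 13 had no entry. Homeobox promoters had a median of 19.5 CpG (range 4 to 40) and 62.7% G and C, against 13 CpG and 56.3% over all 17492 promoters. A peak overlapped the promoter of 9, 14, 15 and 12 of 38 homeobox genes in WT 1 to WT 4, and of 0 in K49A. The WT mean of 32.9% ± 6.96 was near the 30.3% ± 8.53 of all promoters. By library the WT shares were 23.7%, 36.8%, 39.5% and 31.6%, against 18.4%, 30.3%, 34.0% and 38.3% of all promoters. The homeobox share was thus the lower one in WT 4 only. Over all promoters the shares were 0.0915% in K49A 1 and 0.0629% in K49A 2. The 250 bases before the start are shown for 6 genes, chosen after their values were seen, to set covered promoters beside CpG-rich ones that were not covered; capitals mark each CpG. The first pair was covered in all 4 WT libraries (Emx2, chr19:59458440-59458689, plus strand, with all 250 bases in each library, and Lhx2, chr2:38339031-38339280, plus strand, with 183, 250, 179 and 250 bases). The second pair was covered in 3 (Emx1, chr6:85187681-85187930, plus strand, 0, 242, 250 and 250 bases, and Pitx3, chr19:46148326-46148575, minus strand, 0, 250, 147 and 250 bases). The third pair had no covered base in any library (Nkx6-1, chr5:101664712-101664961, and Nkx6-2, chr7:139582798-139583047, both minus strand).
Emx2: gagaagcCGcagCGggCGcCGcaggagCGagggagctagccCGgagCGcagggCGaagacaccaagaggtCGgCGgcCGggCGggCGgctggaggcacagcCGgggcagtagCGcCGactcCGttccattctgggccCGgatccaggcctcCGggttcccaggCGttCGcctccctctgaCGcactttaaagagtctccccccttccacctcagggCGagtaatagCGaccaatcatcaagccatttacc
Lhx2: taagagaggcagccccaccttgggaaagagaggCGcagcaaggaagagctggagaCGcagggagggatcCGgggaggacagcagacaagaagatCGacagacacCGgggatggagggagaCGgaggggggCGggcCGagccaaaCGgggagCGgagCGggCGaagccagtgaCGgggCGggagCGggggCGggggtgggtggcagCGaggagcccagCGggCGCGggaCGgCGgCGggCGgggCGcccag
Emx1: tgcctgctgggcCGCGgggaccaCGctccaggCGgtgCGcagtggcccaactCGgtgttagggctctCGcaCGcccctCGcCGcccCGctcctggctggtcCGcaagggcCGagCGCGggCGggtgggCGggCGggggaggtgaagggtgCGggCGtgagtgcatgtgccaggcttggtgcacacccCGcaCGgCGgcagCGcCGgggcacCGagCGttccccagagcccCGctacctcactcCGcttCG
Pitx3: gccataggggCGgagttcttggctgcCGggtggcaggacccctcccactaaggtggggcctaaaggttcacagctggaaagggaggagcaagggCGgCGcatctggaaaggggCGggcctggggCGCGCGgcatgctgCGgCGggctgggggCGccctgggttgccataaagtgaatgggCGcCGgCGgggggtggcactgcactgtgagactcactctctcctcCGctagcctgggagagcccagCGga
Nkx6-1: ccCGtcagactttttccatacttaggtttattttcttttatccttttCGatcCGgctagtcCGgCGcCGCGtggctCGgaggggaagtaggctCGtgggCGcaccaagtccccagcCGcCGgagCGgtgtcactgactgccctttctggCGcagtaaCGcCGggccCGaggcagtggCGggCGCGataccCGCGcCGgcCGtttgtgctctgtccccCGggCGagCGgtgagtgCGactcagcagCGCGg
Nkx6-2: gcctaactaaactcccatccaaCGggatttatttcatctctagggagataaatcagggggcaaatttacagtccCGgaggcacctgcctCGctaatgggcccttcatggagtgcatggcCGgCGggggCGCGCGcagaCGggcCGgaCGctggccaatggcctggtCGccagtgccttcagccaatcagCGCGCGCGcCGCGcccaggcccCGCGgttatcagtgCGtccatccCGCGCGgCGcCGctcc
The 250 bases hold 24 CpG at Emx2, 25 at Lhx2, 30 at Emx1, 16 at Pitx3, 30 at Nkx6-1 and 26 at Nkx6-2. None of the 6 had a covered base in K49A.

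Over all promoters the median CpG number was 4 for those called in 0 WT libraries and 18, 22, 25 and 30 for those called in 1, 2, 3 and 4. For the homeobox promoters the medians were 15, 20, 19.5, 27 and 21 (17, 7, 4, 5 and 5 genes). Of the 38 homeobox promoters 19 (50.0%) held at least 20 CpG, against 36.1% of all. Among those, 8 of 19 (42.1%) were called in 3 or 4 WT libraries, against 52.0% of all such promoters. At 20 to 29 CpG the homeobox count was 5 of 12 (41.7%), near the 39.9% of all promoters in that range. At 30 CpG or more the homeobox count was 3 of 7 (42.9%), against 69.1%, and 2 of the 7 were called in no WT library (28.6%), against 3.90%. Those 2 are Nkx6-1 and Nkx6-2. Within 1 kb of their tabled starts, Nkx6-1 had a peak in WT 4 and Nkx6-2 in WT 1 and WT 4. The CpG limits of 20 and 30 were chosen after the values were seen. No test was made on these counts. The homeodomain motif TAATTA, which reads the same on both strands, was found in 3 of 38 homeobox promoters (7.89%, Emx2, Msx2 and Otx2) and in 4.69% of all promoters of the same length.

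**Figure D5:**
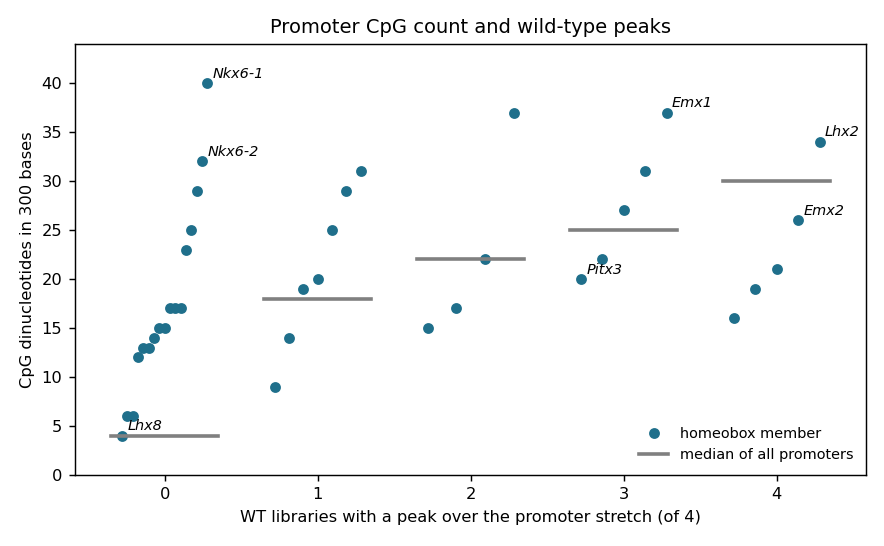
CpG number in the 300 bases around the start (y axis) of the 38 homeobox genes, by the number of WT libraries with a peak over those bases (x axis), with the median of all promoters in each class. The homeobox genes called in 0 libraries reach up to 40 CpG, where the median of all promoters in that class is 4.

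Other homeobox genes and their cofactors also had end peaks in WT sperm and none in K49A. Of 75 homeobox genes outside the Hox clusters and outside the 51 genes, 63.3% ± 11.4 had an end peak in WT (n = 4). The 51 genes had 63.2% ± 13.9, and all genes 42.0% ± 9.23. Of the 75 genes, 26 (34.7%) had an end peak in each WT library and none in K49A, against 21.8% of all genes. Those with the highest ranks were Satb1, a chromatin organiser of T cells, with folds of 3.64, 2.94, 2.87 and 3.48, Barx2 (mean fold 3.15 ± 0.256), Prrx2, a limb mesenchyme factor (3.27 ± 0.521), and Mnx1, a motor neuron factor (2.75 ± 0.216). Of 25 genes for cofactors of homeobox proteins, 70.0% ± 8.33 had an end peak in WT, and 13 (52.0%) had one in each WT library and none in K49A. Eya2, a phosphatase partner of sine oculis proteins, had folds of 4.43, 3.69, 3.26 and 2.89. Pbx3 and Pknox1, whose proteins bind DNA with MEIS and Hox proteins, had mean folds of 3.25 ± 0.388 and 3.21 ± 0.246, and Ssbp2, which binds the LIM cofactor Ldb1, 3.48 ± 0.121. In K49A under 1% of all genes had an end peak.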

How the data were processed

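Mononucleosome-sized DNA of mouse sperm was sequenced in 4 WT and 2 K49A libraries. Per the submitters' processing notes, FastQC, BWA, Picard, SAMtools and MACS2 were used with mm10, with tool versions not given in the sources used here, nor the use of an input control. The deposited values are, for each broad peak called by the authors in each library, a fold (ratio) over background and the −log10 of its p and q. Groups come from the labels. Gene positions come from RefSeq GRCm38.p6, whose outer ends can come from the longest listed transcript; starts and strands come from its promoter table. Peaks were assigned with Python 3.11.15, numpy 2.4.6, pandas 2.3.3 and scipy 1.17.1, and the assignment was tested on simulated data. Group differences over 6 libraries were tested by a two-sided exact permutation test over 15 splits. The members and lists were chosen with earlier results of these data known. Named genes are those with a K49A peak, those with no end peak, in each of 9 families the 2 highest by mean percentile among those called in all 4 WT libraries and the one with the most covered bases, and the 4 highest of each of the other homeobox and cofactor lists. Alternatives were other windows, peak limits, list lengths, midpoints, nearest genes and libraries left out, and, added after seeing the data, the tabled starts. Same-numbered libraries could not be checked for pairing, since K49A counts were 0 or 1.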

Additional observations from a re-analysis of the deposited data

Results flagged for a closer look

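At 2 genes 1 of the 4 WT libraries stood far from the other three by Dixon's criterion, which chance meets in about 1 in 20 groups; 42 values were looked at. At Six2, peaks covered 1303 bp in WT 3 and 690, 767 and 657 bp in WT 1, WT 2 and WT 4; the WT 3 peak was the widest there and had the lowest fold, 2.11. At Pitx3 the best peak had a fold of 3.30 (3.2971) in WT 3 and of 2.70, 2.72 and 2.60 in WT 1, WT 2 and WT 4.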

How the results depend on the processing

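The share of homeobox genes with an end peak stayed lower in K49A under windows of 500 bp and 2 kb, peak midpoints, nearest genes, tabled starts and limits of 5 and 6, with no overlap between groups. With peaks limited to a −log10 p of 10 or more, the difference at gene ends was 0.0 points, and with lists cut to the shortest the difference for stretches was 0.0 points. The number of genes with an end peak in each WT and no K49A library, 12, became 23 with a 2 kb window (45.1%, against 24.5% of all genes), 2 at a limit of 5 (3.92%, against 6.93%), 0 at 6 (2.16% of all genes), 0 at 10 (0.02%) and 0 with lists cut to the shortest (0.07%); these alternatives remove or add peaks by construction. Leaving out each library in turn gave 12 to 23 genes, differences of -60.1 to -69.9 points at ends and -81.4 to -87.3 points in stretches, and -3.59 to -4.51 points of covered bases. The smallest exact permutation p is then 0.2 without a WT and 0.4 without a K49A library. Libraries that share a number may not be paired: a replicate block by title numbers (WT 1 with K49A 1, WT 2 with K49A 2) gave -57.8 points at ends, -80.4 in stretches and -3.22 for covered bases, and pairing by alike file names (WT 4 with K49A 2) gave -57.8, -79.4 and -3.20. Read depth is unknown, the K49A lists start at a higher −log10 p than the WT lists, and weak peaks below those limits would not be seen. With 4 against 2 libraries the exact permutation test cannot reach 0.05.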
